A study of Homo sapiens with 6 samples.

Results

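The urokinase system and a set of serpins were followed in HCT116 cells, an epithelial line from a human colorectal carcinoma. The 8 genes are PLAU, PLAUR, PLAT, SERPINE2, SERPINB5, SERPINB2, SERPINB8 and SERPINB9, and the members are all probe sets whose platform annotation names one of them. These came to 15 probe sets for 7 of the 8 genes, out of 54675 probe sets on the array. SERPINB2 is not analysed here. Each gene was read from its brightest probe set, by the mean of all 6 arrays, among 19775 genes in all, and the other probe sets are given as well.

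On 3 arrays the cells had been transfected with an siRNA pool targeting CDK4 plus a single siRNA targeting CDK6, at 30 nM each. On the other 3 they had received a non-targeting pool plus a negative control siRNA, also at 30 nM each. Both groups were transfected with the same lipid reagent and analysed 96 h later. CDK4 and CDK6 drive the G1 phase of the cell cycle with D-type cyclins. The labels number the arrays as biological replicates without saying whether cultures were started separately, so a p-value covers the array-to-array spread, which may be technical. The model is 1 cell line with a transient knockdown, in which CDK4 stood at 62.2% and CDK6 at 34.0% of the control signal.

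Urokinase, the product of PLAU, is a secreted serine protease that cleaves plasminogen to plasmin at the cell surface while bound to its receptor, the product of PLAUR. Tissue-type plasminogen activator, the product of PLAT, makes plasmin mainly on fibrin. Serpins are protease inhibitors that trap their target by a loop which the protease cleaves. SERPINE2 (protease nexin-1) is secreted and inhibits thrombin, urokinase and plasmin, whereas clade B serpins act mostly inside cells. In colorectal carcinoma, urokinase and its receptor are known for their part in invasion.

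Levels are RMA values on a log2 scale, and each log2 fold change is CDK4/6 siRNA minus control siRNA. Array medians lay between 5.36 and 5.39, correlations over all probe sets ran from 0.997 to 0.998 within groups and from 0.992 to 0.994 between them, and no array stood apart. A gene was called at a limma adjusted p under 0.05, and 26.8% of all genes were called, 14.0% higher and 12.9% lower in CDK4/6 siRNA cells. The epithelial markers EPCAM, KRT8, KRT18 and KRT19 were bright (means 11.79 to 13.27), while the intestinal markers CDH17, VIL1, CDX1 and CDX2 were dim (4.19 to 5.97). Of all 14 epithelial markers 2 were called higher and 4 lower, KRT8 (0.59) and KRT18 (0.51) against ELF3 (-0.75), CLDN4 (-0.52), CDH1 (-0.54) and ESRP1 (-0.32). Of 15 markers of leukocytes, endothelium, fibroblasts and hepatocytes 14 were measured, at means of 3.83 to 7.84. Their mean per array was 5.07 to 5.13 in CDK4/6 siRNA cells and 5.10 to 5.19 in control cells. COL1A1 (-0.49) and ITGAM (-0.23) were called lower and the other 12 were not called. The part of either marker list in the results below was not tested. In such bulk RNA, fewer cells expressing a gene and less RNA per cell cannot be told apart.

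The receptor gene PLAUR fell to 52.7% of its control level while the genes of both plasminogen activators did not pass the test. Among the serpins SERPINB5 rose 1.51-fold and SERPINB9 fell to 75.3% of its control level. PLAU, PLAT, SERPINE2 and SERPINB8 did not pass the test on the probe sets that stand for them. In all, 1 of 7 measured members was called higher and 2 lower, against 14.0% and 12.9% of all genes. The same 3 members were those whose groups did not overlap, against 40.9% of all genes, so neither share is a result about the set. The median log2 fold change of the 7 was 0.062 (-0.0011 over all genes) and the median size of change was 0.20 (0.11 over all genes).

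**Figure D1:**
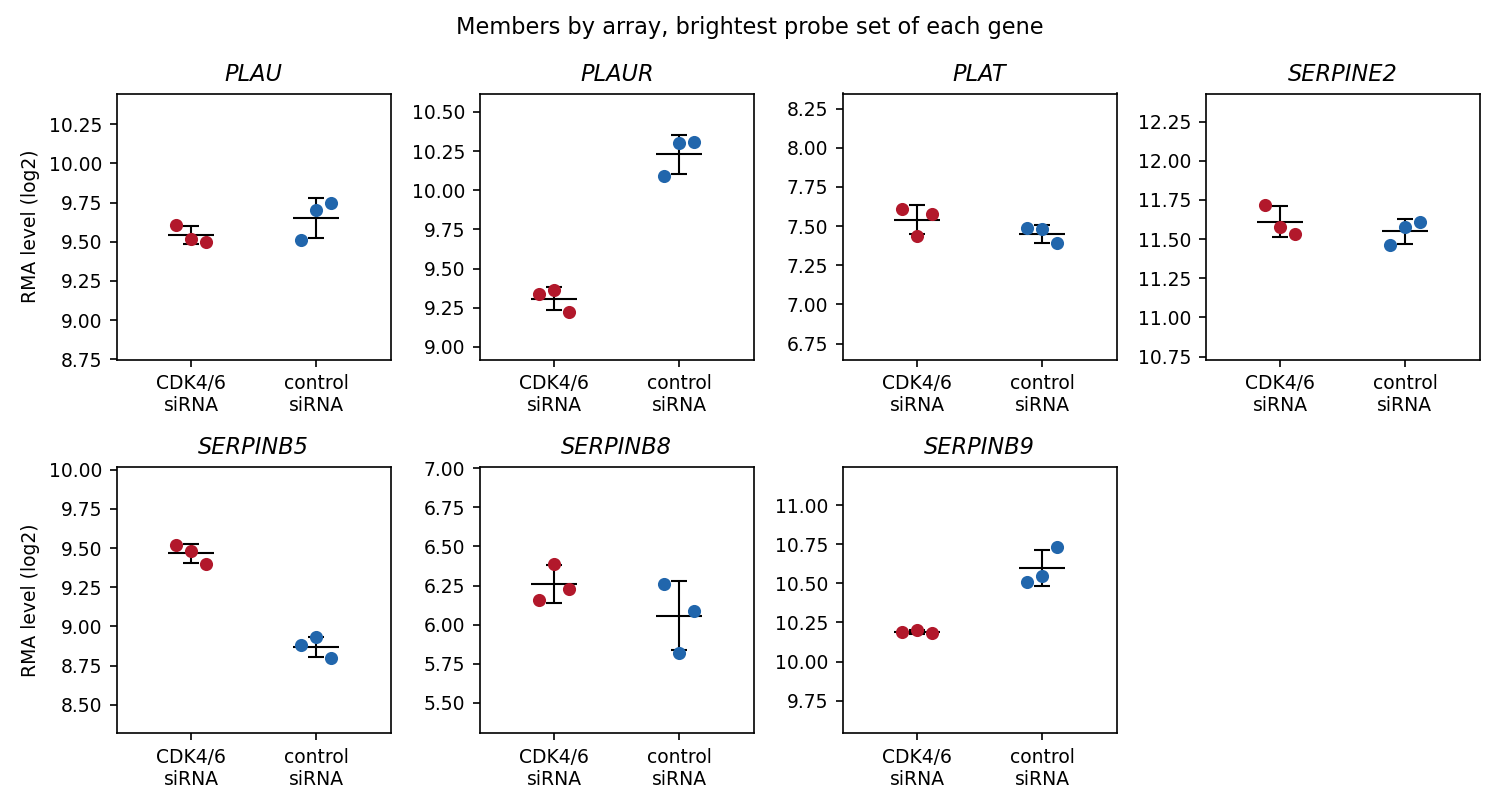
Level of each member on each array (RMA, log2) on the probe set that stands for the gene, CDK4/6 siRNA arrays on the left of each panel and control siRNA arrays on the right, with the mean and SD (n = 3) in black and each panel spanning the same range of levels. PLAUR and SERPINB9 lay lower and SERPINB5 higher in all 3 CDK4/6 siRNA arrays, and the groups overlapped for the other 4 genes.

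PLAUR encodes the GPI-anchored receptor that holds urokinase at the cell surface. Its level was 9.34, 9.36 and 9.22 in the CDK4/6 siRNA arrays, against 10.09, 10.30 and 10.31 in the control arrays. Every CDK4/6 siRNA array was lower than every control array, with the control arrays somewhat more spread (SD 0.13) than the CDK4/6 siRNA arrays (SD 0.073). The log2 fold change was -0.92 (SE 0.075, 95% interval -1.09 to -0.75, limma adjusted p = 9.30e-05). The two-sided exact permutation p was 0.1 (n = 3 per group), the smallest that 3 arrays against 3 allow. Of the genes called lower, 83 fell by more.

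Both other PLAUR probe sets fell as well. One gave 8.81, 8.74 and 8.78 in CDK4/6 siRNA arrays, against 9.50, 9.70 and 9.78 in control arrays, a log2 fold change of -0.89 (SE 0.080). The dimmest gave 8.0, 8.09 and 7.87 in CDK4/6 siRNA arrays, against 8.54, 8.6 and 8.78 in control arrays, a log2 fold change of -0.65 (SE 0.085). The limma adjusted p over all probe sets was 0.000163, 0.000187 and 0.000868 from the brightest to the dimmest, and 17.0% of all probe sets were called. No PLAUR probe set had overlapping groups. The dimmest, the one with a plain name (without the suffix for probes shared between transcripts), showed the smaller fall, and its 95% interval (-0.84 to -0.46) overlapped that of the brightest (-1.10 to -0.75).

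**Figure D2:**
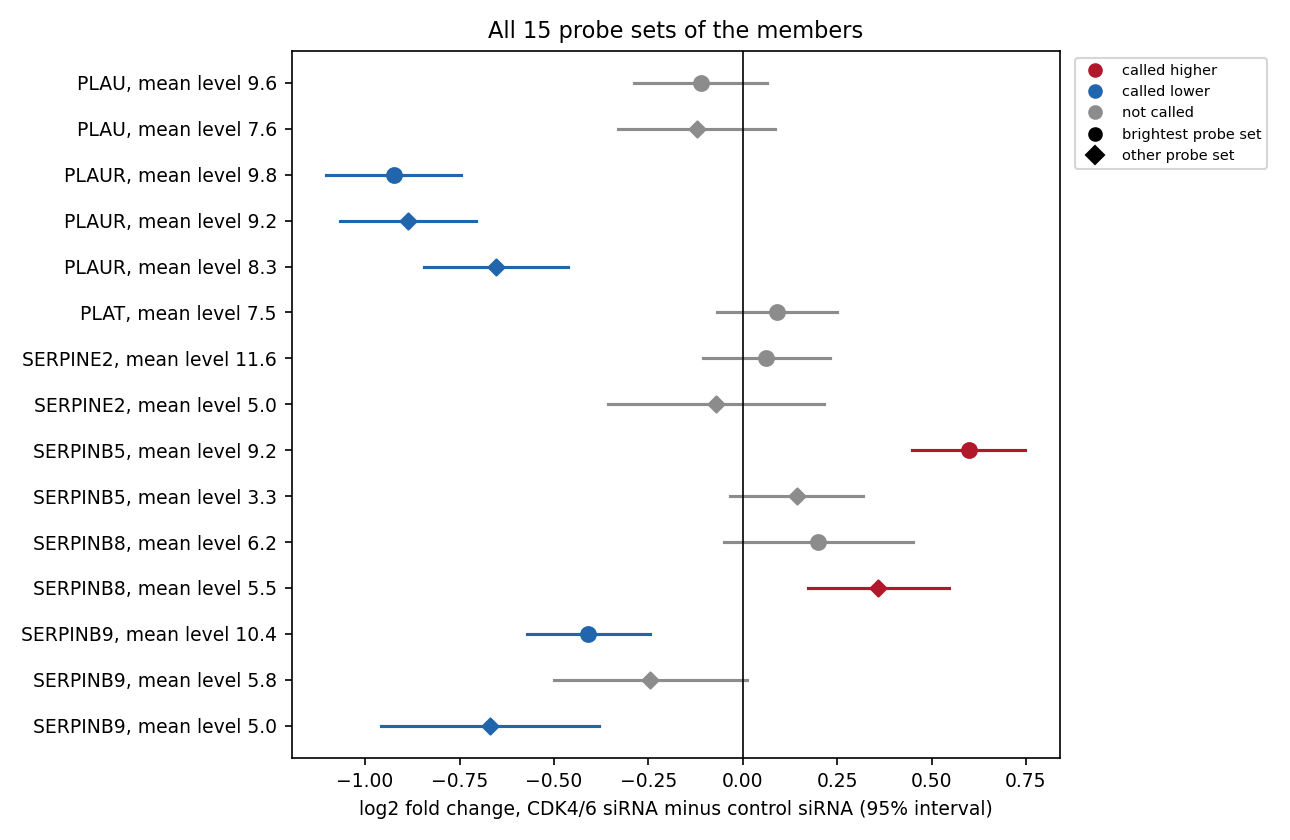
Log2 fold change of all 15 member probe sets (points) with its 95% interval (lines), from limma over all probe sets. Circles mark the probe set that stands for the gene and diamonds the others. All 3 PLAUR probe sets lie between -0.92 and -0.65, both PLAU probe sets lie close to -0.12, and the probe sets of SERPINB5, SERPINB8 and SERPINB9 point one way within each gene with unequal sizes.

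PLAU was at 9.61, 9.52 and 9.50 in CDK4/6 siRNA arrays, against 9.51, 9.70 and 9.75 in control arrays. The groups overlapped, since control replicate 1 was below the highest CDK4/6 siRNA array. The log2 fold change was -0.11 (SE 0.074, 95% interval -0.28 to 0.056, limma adjusted p = 0.334), so a fall as large as that of PLAUR lay outside the interval. The dimmer PLAU probe set, at 7.59, 7.40 and 7.48 in CDK4/6 siRNA arrays and 7.42, 7.70 and 7.72 in control arrays, gave -0.12 (SE 0.093, limma adjusted p = 0.466). Its groups overlapped too.

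The receptor and its ligand were compared within each array, as the PLAUR value minus the PLAU value. This log2 ratio was -0.24 ± 0.066 in CDK4/6 siRNA arrays and 0.58 ± 0.026 in control arrays (SD, n = 3 each). The change of the ratio was -0.81 (exact permutation p = 0.1, the smallest possible, or 0.15 after Benjamini-Hochberg adjustment over the 3 pairs compared). The change of the ratio restates the difference between the log2 fold changes of PLAUR and PLAU. The ratio does not give the amount of one transcript relative to the other.

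PLAT was at 7.61, 7.44 and 7.58 in CDK4/6 siRNA arrays, against 7.49, 7.48 and 7.39 in control arrays. Control replicates 1 and 2 lay above the lowest CDK4/6 siRNA array. PLAT gave a log2 fold change of 0.091 (SE 0.066, 95% interval -0.058 to 0.24, limma adjusted p = 0.378). With the arrays scaled to the hybridisation spike-ins, which were lower by 0.11 in CDK4/6 siRNA arrays (10.15 against 10.25), PLAT gave 0.20 and passed (limma adjusted p = 0.0393). The same scaling moved the median of all genes to 0.11. PLAT rests on 1 probe set.

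The promoter window of PLAUR, from 250 bases before to 50 bases after the start site in the RefSeq table of GRCh38.p14 (chr19:43670120-43670419, minus strand), is shown because the gene had the largest change of the 7 measured members and because it holds a binding motif of AP-1, a dimer of FOS and JUN proteins. Capitals mark that motif, TGAGTCA, whose first base lies at -186.

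PLAUR: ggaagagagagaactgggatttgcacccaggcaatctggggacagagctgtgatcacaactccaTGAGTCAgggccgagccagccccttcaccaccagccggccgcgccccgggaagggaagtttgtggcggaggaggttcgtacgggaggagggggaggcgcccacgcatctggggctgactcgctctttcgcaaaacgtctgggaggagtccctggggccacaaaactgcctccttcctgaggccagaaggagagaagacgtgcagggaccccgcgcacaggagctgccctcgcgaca

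The search took in 9 windows of 7 of the 8 members. PLAT, on chromosome 8, was left out of it. Both strands were searched for 7 motifs. These were the AP-1 motif TGAGTCA, the E-box CACGTG bound by MYC with MAX, and the core ACGTG bound by hypoxia-inducible factors, which overlaps the E-box. The others were the GC box GGGCGG, the ETS motif CCGGAAG, the cyclic AMP response element TGACGTCA (in none of the 9 windows and 1.85% of all) and the TATA box TATAAA. The AP-1 motif was found in 2 of the 9 windows, those of PLAUR and SERPINB8, and in 4.95% of 35116 windows of the same length. ACGTG stood in the PLAUR window at 11, in 1 of the SERPINE2 windows and in that of SERPINB8, and in 21.4% of all windows. CACGTG was found in 1 SERPINE2 window, at -87, and in 7.26% of all windows, while PLAU had 3 GC boxes, at -66, -51 and -40, in the later of its 2 windows and none of the 7 motifs in the other. A match describes these letters in this window and does not show that a factor binds there.

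SERPINE2, the secreted inhibitor of urokinase, thrombin and plasmin, was at 11.72, 11.58 and 11.53 in CDK4/6 siRNA arrays, against 11.46, 11.58 and 11.61 in control arrays. The groups overlapped, and 1 array of each was at 11.58. The difference was 0.062 (SE 0.070, 95% interval -0.097 to 0.22, limma adjusted p = 0.594). Its other probe set was dim, at 5.06, 4.84 and 4.97 in CDK4/6 siRNA arrays and 4.70, 5.18 and 5.19 in control arrays, and gave -0.071 (SE 0.13, limma adjusted p = 0.794).

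SERPINB5 encodes maspin, a clade B serpin that does not act as a classical protease inhibitor and is known as a tumour suppressor in mammary epithelium. Its level was 9.52, 9.48 and 9.40 in CDK4/6 siRNA arrays, against 8.88, 8.93 and 8.80 in control arrays. Every CDK4/6 siRNA array was above every control array, by more than the spread within either group. The log2 fold change was 0.60 (SE 0.061, 95% interval 0.46 to 0.74, limma adjusted p = 0.000215), and 415 called genes rose by more. The exact permutation p was 0.1 (n = 3 per group). The other SERPINB5 probe set was among the dimmest of the array, at 3.34, 3.45 and 3.26 in CDK4/6 siRNA arrays and 3.30, 3.24 and 3.09 in control arrays, and gave 0.14 (SE 0.078, limma adjusted p = 0.288). With the mean of both probe sets SERPINB5 gave 0.37 (limma adjusted p = 0.00218).

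SERPINB8 encodes an intracellular serpin that inhibits the proprotein convertase furin. Its brightest probe set was at 6.16, 6.39 and 6.23 in CDK4/6 siRNA arrays, against 6.26, 5.82 and 6.09 in control arrays. Control replicate 1 was above 2 of the CDK4/6 siRNA arrays. On the log2 scale the difference was 0.20 (SE 0.11, 95% interval -0.050 to 0.45, limma adjusted p = 0.238). It was 0.082 without control replicate 2, 0.13 without CDK4/6 siRNA replicate 2 and 0.30 without control replicate 1, none of which passed. The dimmer SERPINB8 probe set was at 5.65, 5.71 and 5.59 in CDK4/6 siRNA arrays, against 5.27, 5.45 and 5.16 in control arrays, with no overlap. It rose by 0.36 (SE 0.083, limma adjusted p = 0.0157 over all probe sets), so the call for SERPINB8 depends on the probe set. With the mean of both, SERPINB8 gave 0.28 and passed (limma adjusted p = 0.0107).

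SERPINB9 encodes an inhibitor of granzyme B, the protease by which cytotoxic lymphocytes kill target cells. Its level was 10.19, 10.20 and 10.18 in CDK4/6 siRNA arrays, against 10.51, 10.55 and 10.73 in control arrays. The CDK4/6 siRNA arrays differed little among themselves (SD 0.012) and all lay below the control arrays (SD 0.12). The log2 fold change was -0.41 (SE 0.068, 95% interval -0.56 to -0.26, limma adjusted p = 0.00218), and 891 called genes fell by more. The exact permutation p was 0.1 (n = 3 per group).

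Of the 2 dimmer SERPINB9 probe sets, 1 passed. At 4.76, 4.55 and 4.71 in CDK4/6 siRNA arrays and 5.10, 5.65 and 5.28 in control arrays it fell by 0.67 (SE 0.13, limma adjusted p = 0.00617). The other was at 5.51, 5.77 and 5.63 in CDK4/6 siRNA arrays, against 5.99, 5.63 and 6.03 in control arrays, with overlapping groups. It gave -0.24 (SE 0.11, limma adjusted p = 0.198). Over all 15 member probe sets, 2 were called higher, 5 lower and 8 not, against 17.0% called among all probe sets. Several called sets read the same gene, among them all 3 of PLAUR, so this share is not a result about the set.

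The windows of the 3 serpins with a called probe set are shown for comparison with that of PLAUR (RefSeq, GRCh38.p14; SERPINB5 at chr18:63476708-63477007, plus strand, SERPINB8 at chr18:63969831-63970130, plus strand, and SERPINB9 at chr6:2903260-2903559, minus strand). Capitals mark the AP-1 motif TGAGTCA, the GC box GGGCGG and the TATA box TATAAA, each on either strand.

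SERPINB5: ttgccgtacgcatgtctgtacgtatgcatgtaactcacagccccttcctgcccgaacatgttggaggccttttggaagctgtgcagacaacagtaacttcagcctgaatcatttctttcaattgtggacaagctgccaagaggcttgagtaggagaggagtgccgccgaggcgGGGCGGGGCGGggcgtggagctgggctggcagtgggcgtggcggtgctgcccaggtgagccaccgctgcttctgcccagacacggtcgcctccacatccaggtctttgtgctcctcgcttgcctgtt
SERPINB8: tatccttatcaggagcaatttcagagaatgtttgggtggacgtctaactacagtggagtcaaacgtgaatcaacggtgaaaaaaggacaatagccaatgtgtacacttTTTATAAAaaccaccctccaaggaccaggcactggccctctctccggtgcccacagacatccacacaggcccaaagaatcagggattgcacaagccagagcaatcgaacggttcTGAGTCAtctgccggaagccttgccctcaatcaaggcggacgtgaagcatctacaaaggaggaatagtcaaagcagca
SERPINB9: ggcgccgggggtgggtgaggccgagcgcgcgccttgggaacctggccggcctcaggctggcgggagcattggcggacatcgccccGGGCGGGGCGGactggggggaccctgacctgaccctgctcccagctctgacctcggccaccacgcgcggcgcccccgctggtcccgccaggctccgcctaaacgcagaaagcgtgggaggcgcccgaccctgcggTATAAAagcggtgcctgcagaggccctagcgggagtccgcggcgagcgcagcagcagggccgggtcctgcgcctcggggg

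SERPINB5 had 2 overlapping GC boxes, at -77 and -72, and SERPINB9 had 2, at -165 and -160, with a TATA box at -30. GGGCGG was in 45.0% and TATAAA in 11.5% of all windows. SERPINB8 had the AP-1 motif at -28 and, beside it, CCGGAAG at -17 (10.3% of all windows), with TATAAA on both strands in overlapping letters at -142 and -140. Neither the SERPINB5 nor the SERPINB9 window held TGAGTCA.

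The clade B serpins lie in a group on chromosome 6 (SERPINB1, SERPINB9 and SERPINB6) and a group on chromosome 18, which begins with SERPINB5 and ends with SERPINB8. Of 8 other clade B serpins measured only SERPINB1 was called, against 26.8% of all genes. SERPINB1, an inhibitor of neutrophil elastase and the neighbour of SERPINB9 among these genes, was at 10.06 ± 0.068 in CDK4/6 siRNA cells and 10.87 ± 0.11 in control cells (SD, n = 3 each). It fell, with a log2 fold change of -0.80 (SE 0.070, limma adjusted p = 0.000115). Its next probe sets gave -0.46 and -0.32, the dimmest gave 0.047, and with the mean of all 4 SERPINB1 gave -0.38 (limma adjusted p = 0.00173).

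The value of SERPINB9 minus that of SERPINB1 within each array was 0.13 ± 0.073 in CDK4/6 siRNA arrays and -0.27 ± 0.052 in control arrays (SD, n = 3 each), a change of 0.40 (exact permutation p = 0.1, 0.15 adjusted over 3 pairs). The SERPINB5 value minus the SERPINB8 value was 3.21 ± 0.14 in CDK4/6 siRNA arrays and 2.81 ± 0.26 in control arrays, a change of 0.40 that did not reach the smallest p (exact permutation p = 0.2, n = 3 per group). Between SERPINB5 and SERPINB8 the probe sets of SERPINB12, SERPINB13, SERPINB4, SERPINB3, SERPINB11, SERPINB7 and SERPINB10 had mean levels of 3.33 to 4.70 and log2 fold changes of -0.10 to 0.11, none called. Whether these dim signals stand above the array background was not tested.

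**Figure D3:**
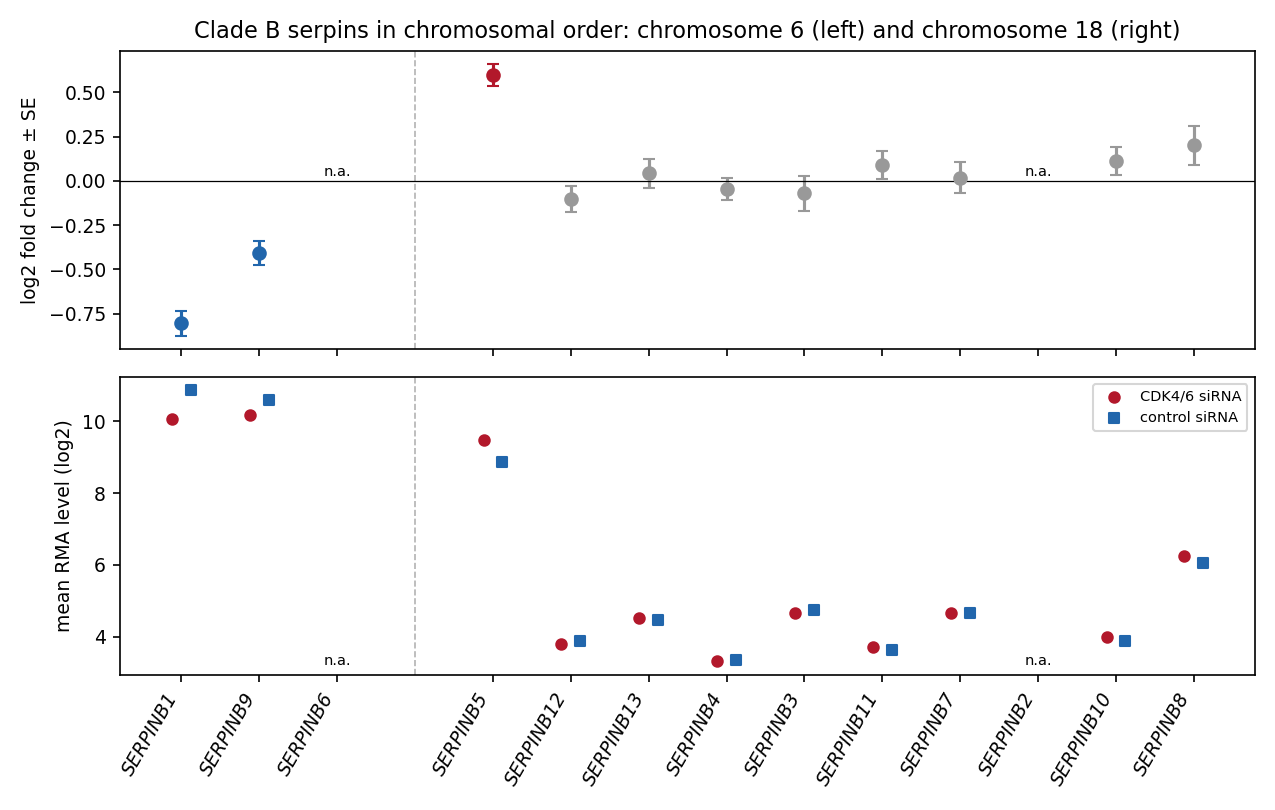
Clade B serpins in their order along chromosome 6 (left of the dashed line) and chromosome 18 (right), with the log2 fold change ± SE above (blue called lower, red called higher, grey not called) and the mean level in both groups below. SERPINB1 and SERPINB9 lie below 0, SERPINB5 above it, and the 7 dim genes from SERPINB12 to SERPINB10 close to 0. Genes not analysed here are marked n.a.

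A list of 41 genes around plasminogen activation held plasminogen, its receptors, inhibitors, clearance receptors and partners of the urokinase receptor. Of the 41, 36 were measured. Of these 5 were called higher and 8 lower, against 14.0% and 12.9% of all genes, with a median log2 fold change of -0.066. Under spike-in scaling 7 were higher and 5 lower, with a median of 0.042. NGLY1, a cytosolic deglycosylating enzyme, stands in the list without a known role in plasminogen activation and had its smallest p (-0.85, limma adjusted p = 3.64e-05). Without it the counts were 5 higher and 7 lower of 35. Plasminogen itself (PLG), at a mean level of 5.67, gave 0.010 (SE 0.095, limma adjusted p = 0.958), and the cell-surface plasminogen binders S100A10 (-0.084) and ANXA2 (0.16, limma adjusted p = 0.0529) did not pass. ENO1, which the list holds as a plasminogen receptor, was called lower (-0.26, limma adjusted p = 0.00905), while PLGRKT (-0.079) did not pass.

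FN1, the matrix protein fibronectin that integrins bind beside the urokinase receptor, fell by 0.77 (7.55 ± 0.12 in CDK4/6 siRNA cells and 8.32 ± 0.11 in control cells, SD, n = 3 each). Its 4 brightest probe sets gave -1.10 to -0.64, while the plain-name probe set FN1 had when only such sets were used gave -0.12 and was not called. That plain-name set was dim, at a mean level of 4.37, against 7.50 to 7.93 for the 4 brightest. MRC2, a collagen receptor that associates with urokinase bound to its receptor, fell by 0.55, or by 0.37 when its probe sets were averaged. The integrin subunits ITGAV (-0.32), ITGA5 (-0.30) and ITGA3 (-0.24) were called lower and ITGB1 (-0.12), ITGB3 (-0.053) and ITGB5 (-0.023) did not pass. KRT8, a keratin that can bind plasminogen on epithelial cells, rose by 0.59. PLG, S100A10, ANXA2, ENO1, PLGRKT and the integrins were picked from the list for their role with their values known.

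Among 18 measured serpins of other clades 3 were called higher and 5 lower, against 14.0% and 12.9% of all genes, with a median of 0.018. Spike-in scaling turned this balance to 5 higher and 2 lower, with a median of 0.13. SERPINH1, the collagen chaperone of the endoplasmic reticulum, rose by 0.45 (9.18 ± 0.063 in CDK4/6 siRNA cells and 8.73 ± 0.070 in control cells, SD, n = 3 each). SERPINF1, the antiangiogenic pigment epithelium-derived factor, rose by 0.46 at a mean level of 5.49. SERPINA5, which inhibits urokinase and activated protein C, fell by 0.53 (6.68 ± 0.14 in CDK4/6 siRNA cells and 7.21 ± 0.10 in control cells), and SERPINA3, an inhibitor of cathepsin G, fell by 0.46 at a mean level of 5.18. Without variance moderation SERPINA3 lost its call (adjusted p = 0.104).

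A list of 44 held proteases, protease inhibitors and factors that urokinase or plasmin can activate. Of these 3 were called higher and 7 lower, against 14.0% and 12.9% of all genes, with a median of -0.061. Under spike-in scaling 5 were higher and 4 lower, with a median of 0.048. MMP7, a matrix metalloproteinase of epithelial cells, rose by 0.49, and CASP8, the caspase of death receptors, by 0.42, a call lost on its plain-name probe set (0.052). That CASP8 probe set was dim (mean level 4.34), and the remaining one, at 6.94, gave 0.49 (limma adjusted p = 0.00321 over all probe sets). SPINT1, an inhibitor of the activator of hepatocyte growth factor, fell by 0.44 and PRSS8, a membrane-anchored serine protease, by 0.46. FURIN, the target of SERPINB8, was lower by 0.22 (limma adjusted p = 0.0149), and GZMB, the target of SERPINB9, was dim at 4.05 and gave -0.025 (limma adjusted p = 0.853). These last 2 genes were picked for their role with their values known.

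Among relatives of the urokinase receptor, which share its protein fold, 17 were measured. Of these 1 was called higher and 2 lower, against 14.0% and 12.9% of all genes, with a median of 0.046. Under spike-in scaling 3 were higher and 1 lower, with a median of 0.15. CD59, which protects cells from complement, rose by 0.53, and 4 of its 5 probe sets gave 0.53 to 0.66 while the other, the brightest with a plain name, gave -0.13 and was not called. LYPD6 (-0.43) and LYPD5 (-0.21) were called lower at mean levels of 5.75 and 4.74, and both calls were lost in several alternatives (highest limma adjusted p = 0.406 for LYPD6 and 0.354 for LYPD5). LYPD3 gave -0.17 and did not pass (limma adjusted p = 0.115).

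AP-1, ETS and a few other transcription factors, several of them described at the regulatory regions of PLAU and PLAUR in other cells, formed a list of 24. Of these 13 were called lower and 3 higher, against 12.9% and 14.0% of all genes, with a median of -0.21. Under spike-in scaling 9 were lower and 3 higher, with a median of -0.10. FOS was at 6.41 ± 0.17 in CDK4/6 siRNA cells and 7.67 ± 0.23 in control cells (SD, n = 3 each), a log2 fold change of -1.26 (SE 0.12, limma adjusted p = 0.000178). ATF3 fell by 0.77, ETS1 by 0.75 and MAFF by 0.74. Of the other FOS and JUN genes, JUNB (-0.55), FOSL2 (-0.47), JUND (-0.25) and FOSB (-0.19) were called lower, while FOSL1 (-0.10) and JUN (-0.077) did not pass. The FOS and JUN genes other than FOS were added for their role in AP-1 with their values known. On other probe sets ATF3 gave -0.22 and 0.029 and ETS1 gave -0.31 and -0.13, and ETS1 gave -0.40 when its probe sets were averaged. The list shares ELF3 with the epithelial markers, as the plasminogen list shares KRT8 with them and SERPINA5, SERPINF2 and SERPINI1 with the serpins. Whether these changes bear on PLAUR was not tested.

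**Figure D4:**
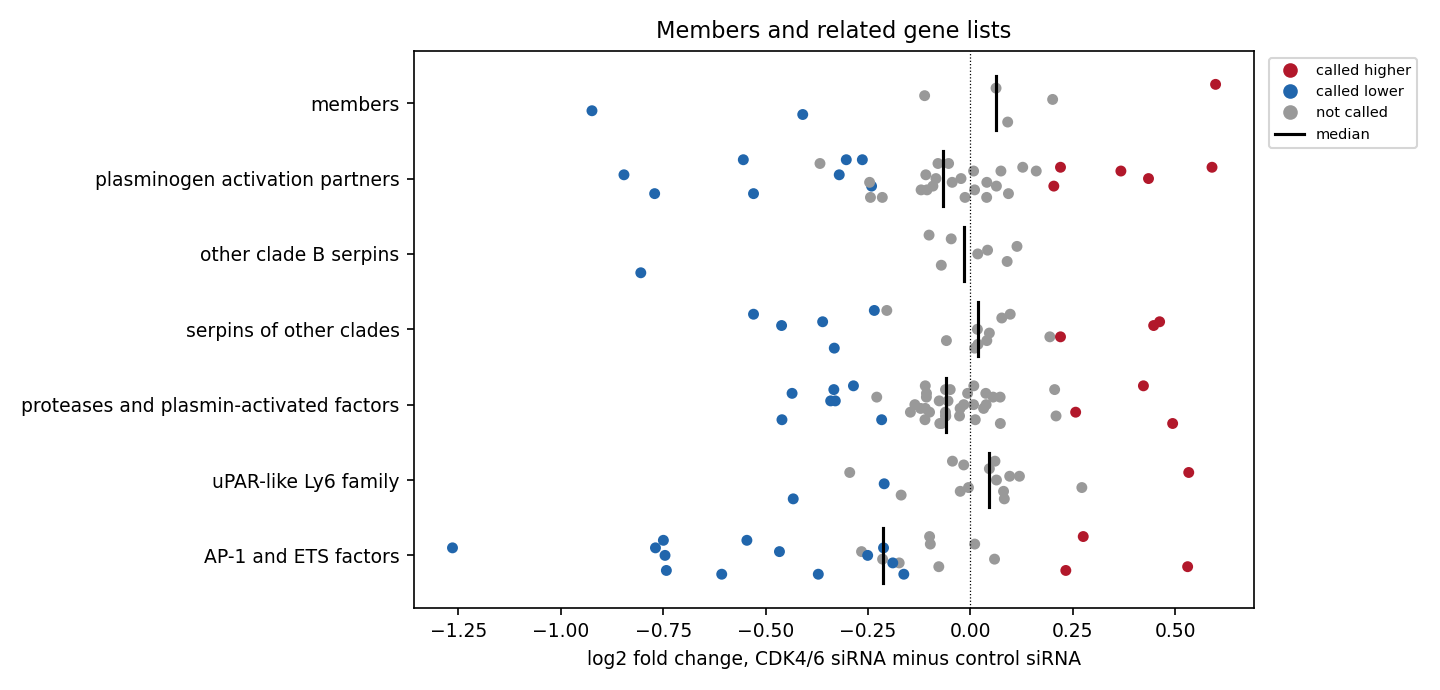
Log2 fold change of each measured gene in the member set and in 6 lists, 1 point per gene, red called higher, blue called lower and grey not called, with the median as a black bar. The AP-1 and ETS factors have the lowest median (-0.21), with FOS at -1.26, and the other medians lie between -0.066 and 0.062. Under spike-in scaling, not drawn here, the median of the AP-1 and ETS factors is -0.10 and every other median lies above 0.

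The genes whose levels over the 6 arrays were most like PLAUR were RBPJ, the DNA-binding factor of Notch signalling (Pearson r = 0.9997), TENT5A (0.9997) and KLHL15 (0.9993). Their log2 fold changes were -0.61, -0.70 and -0.48, each called lower. Those most like PLAU were PRR14L (r = 0.981), RIMBP2 (0.979) and the actin-severing protein gelsolin, GSN (0.979), with changes of -0.049, -0.048 and -0.10, none called. The points are 6 arrays in 2 groups chosen from 19775 genes, so such values describe likeness only, and for PLAUR they rest mainly on the gap between the groups.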

How the data were processed

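RNA of 6 HCT116 samples, 3 per group, was measured on single-channel Affymetrix arrays. The authors deposited log2 values, made with RMA per the submitters' processing notes. RMA equalises the arrays, so each difference is read against most other probe sets, and it tends to compress changes of dim ones. No detection calls were used, and the number of arrays limits the precision.

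Probe sets with 1 gene symbol that were not array controls (41091 of 54675) were reduced to the brightest per gene. Of these, 41037 matched a RefSeq table of GRCh38.p14 by gene identifier, used for names and gene order. CDK4/6 siRNA was compared with control siRNA by lmFit and eBayes (limma 3.58.1, R 4.3.3) without covariates, adjusting by Benjamini-Hochberg over 19775 genes, and a second time over 54613 probe sets. Single values had a two-sided exact permutation test. The fit was tested on simulated data. Figures were drawn with matplotlib 3.10.9.

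The members and the 6 gene lists were chosen with earlier results of these data known. Genes named are the 8 members, up to 4 per list with the smallest adjusted p, and the 3 most correlated with PLAU and with PLAUR, besides those said to be picked later. Alternatives were the replicate block, 2 normalisations, spike-in scaling, a dim-gene filter, other probe set choices, other variance models, array weights, a stricter threshold (0.01) and leaving out each array in turn. Applying them to the lists and to other named genes was added after seeing the data.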

Additional observations from a re-analysis of the deposited data

How the results depend on the processing

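PLAUR, SERPINB5 and SERPINB9 kept their direction and their call in all 18 alternatives run. PLAUR ranged from -0.996 to -0.65 on the log2 scale (highest adjusted p = 0.0106), SERPINB5 from 0.37 to 0.71 (0.01) and SERPINB9 from -0.45 to -0.30 (0.0278). Each of these highest values came from the ordinary t-test without variance moderation. PLAU passed in none of 17 alternatives (-0.18 to -0.0034). PLAT passed only under spike-in scaling (0.20), and SERPINB8 only when a gene's probe sets were averaged (0.28), under which SERPINE2 turned to -0.0043 without passing. With 1 array left out, PLAU ranged from -0.18 to -0.061, PLAT from 0.056 to 0.14, SERPINE2 from 0.0072 to 0.10 and SERPINB8 from 0.082 to 0.30, none passing. Members called numbered 3 or 4 throughout.

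Genes called numbered 5307, with 9302 when each probe set was tested separately and 3326 at an adjusted p under 0.01. With the spike-in scaling 78.2% of calls were higher in CDK4/6 siRNA cells, against 52.0% as deposited. Both groups carry replicate numbers 1 to 3. Deviations of same-numbered arrays correlated at -0.062 to -0.021, and 0 of 6 arrays correlated best with their own number, so the numbers were not taken as pairs. With the replicate number as a block 4738 genes and the same count of 3 members were called.

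On plain-name probe sets, plasminogen activation partners had 7 calls of 32 measured, against 13 of 36 in the main fit. AP-1 and ETS factors had 10 of 19, against 16 of 24. Among all genes that setting called 3830 of 16782, against 5307 of 19775. At an adjusted p under 0.01, AP-1 and ETS factors had 10 calls, serpins of other clades 3 and receptor relatives 1, and without variance moderation the last 2 lists had 4 and 1. With 1 array left out the receptor relatives had 1 to 3 calls, with 1 without control replicate 2 or CDK4/6 siRNA replicate 1. Spike-in scaling turned PRR14L (0.059), RIMBP2 (0.061), GSN (0.0051) and SERPINB12 (0.0074), the mean of probe sets turned RIMBP2 (0.057), and plain-name probe sets turned CD59 (-0.13) and ATF3 (0.029), none of these passing. The causes were not tested.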
